A study of Homo sapiens with 18 samples.

Results

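Kallikreins are secreted serine proteases, and the arrays measured the transcripts of 9 of them, *KLK2*, *KLK3*, *KLK4*, *KLK5*, *KLK6*, *KLK7*, *KLK8*, *KLK10* and *KLK11*, in a pair of triple-negative breast cancer (TNBC) cell lines. A gene was taken where its symbol in the platform annotation was one of these 9 names. Each of the 9 was the only symbol of exactly 1 transcript cluster, the array's unit for 1 gene, among the 53617 clusters on the array. HCC1806 and HCC1395 cells had been treated for 48 h with GapmeR 1 or GapmeR 2, both directed at the lncRNA *PART1*, or with a negative control GapmeR, and total RNA of each of the 6 groups was measured on 3 Affymetrix arrays of the type Human Gene 2.0 ST. A GapmeR is a modified antisense oligonucleotide that directs RNase H to the RNA it binds. All groups received a GapmeR, and untreated cells were not part of the comparison. Each line is a single established culture of 1 tumor, so a difference between them is a difference between 2 lines and not between tumor types. The labels do not say whether the 3 arrays of a group came from separate cultures, so p-values reflect array-to-array spread only, and this could be technical in origin.

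The kallikrein genes lie side by side on chromosome 19, and each encodes a protease that is made as an inactive precursor and cut to its active form outside the cell. *KLK3* encodes prostate-specific antigen (PSA), and *KLK2*, *KLK3* and *KLK4* are androgen-responsive genes of the prostate. KLK5, KLK7 and KLK8 act in a cascade at the skin surface, where they cut the proteins that join keratinocytes. Kallikreins of this second kind are made by many epithelia, the mammary epithelium among them. *PART1*, the target of the GapmeRs, was named as a prostate transcript regulated by androgen, and the measurements below ask how the kallikreins stood in the 2 lines and whether they differed after each GapmeR.

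The promoters of 4 members are shown: those of the androgen-responsive pair, *KLK3* and *KLK2*, and those of *KLK5* and *KLK10*, the members that differed most between the lines. Sequences are RefSeq's for GRCh38.p14, 5′ to 3′ on the strand of the gene, with 250 bases before and 50 after the annotated start. Of the 9 members, 8 matched a promoter entry, and *KLK8* is only named here. *KLK10* has another entry with its own annotated start, chr19:51019660-51019959, which is not shown. Capitals mark AGAACA, a half-site of the androgen receptor, GAACAGCAAGTGCT, a 14-base run that overlaps it in *KLK3* and was chosen because *KLK2* and *KLK3* share it, and TATAA, each on either strand. Where AGAACA and the longer run overlap they appear as a single run of capitals, as do overlapping matches of TATAA and its reverse complement TTATA.
*KLK3* chr19:50854665-50854964, plus strand: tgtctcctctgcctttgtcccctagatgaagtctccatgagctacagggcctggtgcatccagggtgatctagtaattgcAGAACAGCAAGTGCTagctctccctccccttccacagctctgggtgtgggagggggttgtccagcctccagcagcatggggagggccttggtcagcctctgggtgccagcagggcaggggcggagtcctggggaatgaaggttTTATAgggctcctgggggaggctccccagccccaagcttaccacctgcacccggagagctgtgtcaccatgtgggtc
*KLK2* chr19:50873189-50873488, plus strand: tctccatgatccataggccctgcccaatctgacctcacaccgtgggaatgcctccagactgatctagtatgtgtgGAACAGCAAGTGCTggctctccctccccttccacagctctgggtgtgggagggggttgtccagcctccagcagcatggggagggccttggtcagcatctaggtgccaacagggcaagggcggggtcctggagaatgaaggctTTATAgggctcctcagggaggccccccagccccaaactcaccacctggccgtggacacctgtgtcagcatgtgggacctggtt
*KLK5* chr19:50952989-50953288, minus strand: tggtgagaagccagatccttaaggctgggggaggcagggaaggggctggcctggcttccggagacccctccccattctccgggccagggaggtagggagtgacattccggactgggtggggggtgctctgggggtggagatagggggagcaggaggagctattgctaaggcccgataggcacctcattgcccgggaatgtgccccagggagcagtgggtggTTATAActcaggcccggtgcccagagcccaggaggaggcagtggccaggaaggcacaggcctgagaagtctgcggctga
*KLK10* chr19:51019812-51020111, minus strand: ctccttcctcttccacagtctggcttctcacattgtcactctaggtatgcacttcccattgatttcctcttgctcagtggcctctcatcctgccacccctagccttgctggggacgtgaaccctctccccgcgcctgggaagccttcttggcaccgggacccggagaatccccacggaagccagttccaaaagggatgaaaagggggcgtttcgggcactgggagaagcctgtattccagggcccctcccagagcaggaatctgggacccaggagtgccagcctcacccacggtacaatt

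GAACAGCAAGTGCT occurred in 2 of 35116 promoters of this length, or 0.006%, and these were the promoters of *KLK2* and *KLK3*. Its presence in both follows from how it was chosen and is no finding. It began at base 76 of the *KLK2* sequence and at base 82 of the *KLK3* sequence. AGAACA was present in 1 member, *KLK3*, and in 14.8% of all promoters. TATAA was found in an entry of 5 members, *KLK2*, *KLK3*, *KLK4*, *KLK5* and *KLK7*, and in 20.4% of all promoters. Members with several entries were counted if any entry matched, whereas the percentages are per promoter, so counts and percentages are not directly comparable. TGANTCA, the AP-1 motif, was found in none of the 13 entries of the members and in 7.71% of all promoters. These are matches of letters in a window, and whether any protein binds there was not tested.

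*PART1* was examined first, because it checks the treatment. The HCC1395 arrays gave a *PART1* log2 signal of 4.93, 4.72 and 5.36 with GapmeR 1 and 4.86, 5.29 and 4.70 with GapmeR 2, against 5.45, 5.76 and 5.61 with the control. All 6 GapmeR arrays were below the 3 control arrays, which held for 1.52% of all clusters. The log2 fold change over both GapmeRs was −0.63 ± 0.17 (SE), with an adjusted p of 0.685 in limma. In HCC1806 the *PART1* signal ran from 3.68 to 4.47 on the 6 arrays with a GapmeR label, against 3.69 to 3.94 on the control arrays, so the target showed no decrease there (0.19 ± 0.16, adjusted p = 0.965 in limma). The HCC1806 control mean of 3.84 was already below the array medians of 4.04 to 4.13, where a decrease is hard to measure, so *PART1* is a weak check of the labels in this line. By QPCR, the study reports less *PART1* after these GapmeRs in both lines, a measurement apart from these arrays. Directions in HCC1806 below are those of the labels. Arrays of 1 group correlated with an r of 0.982 to 0.988 over all clusters, and arrays of other groups of the same line with 0.980 to 0.988. By this measure no array stood apart, and it does not separate the groups of a line.

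The 2 lines differed widely in the kallikreins. On the control arrays *KLK5*, *KLK10*, *KLK7*, *KLK8* and *KLK11* were higher in HCC1806 than in HCC1395, by 7.76-fold, 4.22-fold, 1.92-fold, 1.82-fold and 1.51-fold, and no member was lower. These 5 of 9 passed an adjusted p under 0.05 in limma, where 14.4% of all clusters were called higher and 29.3% were called in either direction. The median difference of the 9 members was 0.60 on the log2 scale, beside −0.001 over all clusters. In such bulk RNA, fewer cells making a transcript and less of it in each cell cannot be told apart.

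**Figure D1:**
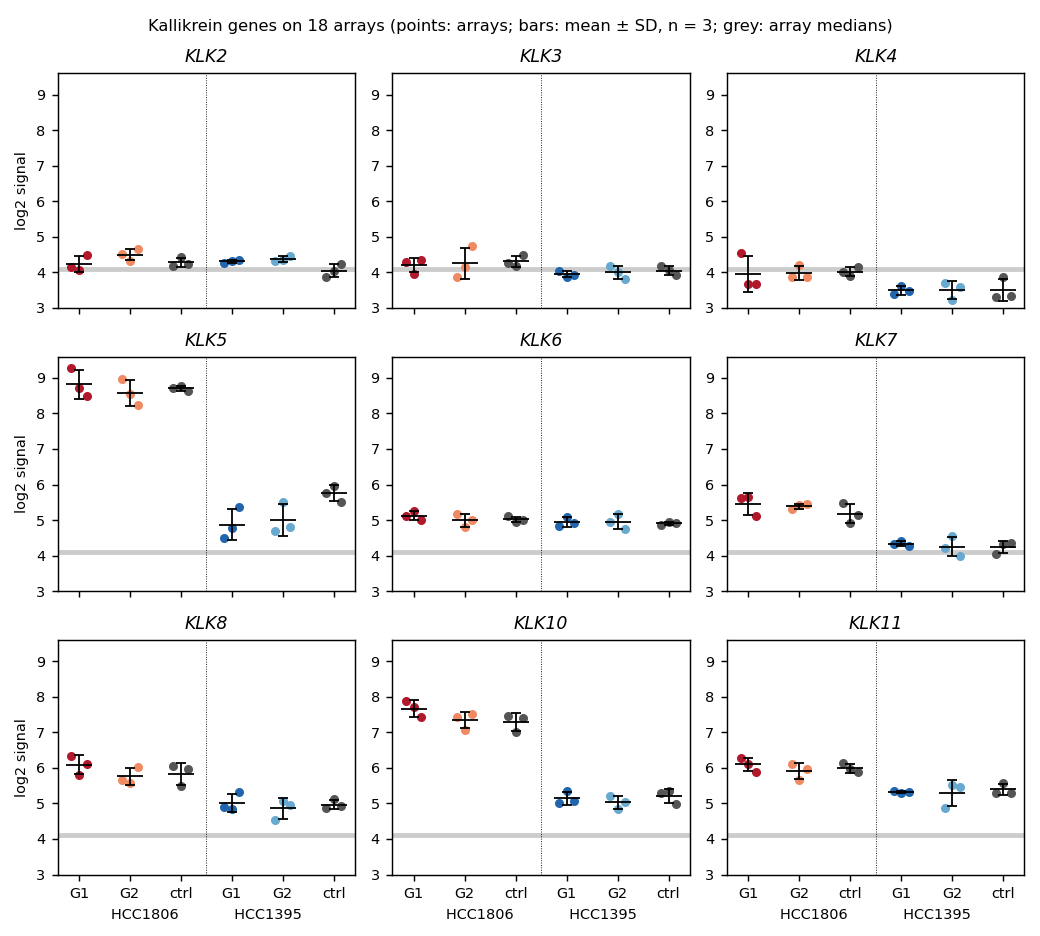
Log2 signal of the 9 kallikrein genes on each of the 18 arrays, with arrays labelled GapmeR 1 (G1), GapmeR 2 (G2) and control (ctrl) for HCC1806 on the left and HCC1395 on the right of each panel. Points are arrays, bars are the mean and SD of 3 arrays and the grey band spans the array medians of 4.04 to 4.13. *KLK5*, *KLK7*, *KLK8*, *KLK10* and *KLK11* were higher on all 9 HCC1806 arrays than on any HCC1395 array.

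Of the cascade proteases, *KLK5*, a trypsin-like enzyme that activates the precursors of other kallikreins, showed the widest gap. Its log2 signal was 8.72, 8.77 and 8.63 on the HCC1806 control arrays, against 5.77, 5.96 and 5.51 on the HCC1395 control arrays. The lines were thus separated by more than 2 log2 units at their nearest arrays, and the fitted difference was 2.96 ± 0.26 (SE, n = 3 arrays per line, adjusted p = 1.55e-07 in limma). *KLK7*, the chymotrypsin-like enzyme that KLK5 activates, gave 5.48, 4.92 and 5.16 in HCC1806 controls, against 4.06, 4.32 and 4.35 in HCC1395 controls. Every HCC1806 value of *KLK7* was the higher, although its difference of 0.94 ± 0.17 (adjusted p = 0.000388 in limma) was smaller. *KLK8*, which encodes neuropsin, a protease of brain and skin, gave 6.05, 5.48 and 5.97 in HCC1806 controls, against 4.87, 5.13 and 4.92 in HCC1395 controls. This was a difference of 0.86 ± 0.20 (adjusted p = 0.00262 in limma), again with no overlap of the arrays.

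*KLK10* was first described as a gene of normal mammary epithelial cells. It had a log2 signal of 7.45, 7.0 and 7.41 on HCC1806 control arrays, against 5.28, 5.35 and 4.99 on HCC1395 control arrays, a difference of 2.08 ± 0.17 (SE, adjusted p = 5.88e-08 in limma). For *KLK11*, which encodes a trypsin-like kallikrein, the signals were 6.12, 5.96 and 5.89 in HCC1806 controls, against 5.31, 5.57 and 5.31 in HCC1395 controls. The *KLK11* arrays did not overlap, and the difference of 0.60 ± 0.17 had an adjusted p of 0.0116 in limma. This call rested on 1 array: without HCC1806 control replicate 1 the difference was 0.53 and its adjusted p 0.0521, within a range of 0.00664 to 0.0521 over 14 alternatives.

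*KLK6*, a trypsin-like protease known best from the central nervous system, had the smallest difference of the 9 members. Its signals were 5.11, 4.96 and 5.0 in HCC1806 controls, against 4.87, 4.94 and 4.92 in HCC1395 controls. Although the 3 HCC1806 values were the higher, the difference of 0.11 ± 0.13 had an adjusted p of 0.599 in limma, and its 95% interval ran from −0.16 to 0.39. *KLK6* lies between *KLK5* and *KLK7* on the chromosome, and its neighbours were both among the called genes.

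Of the androgen-responsive kallikreins, *KLK2* and *KLK3* gave signals close to the array medians in both lines, and *KLK4* was below them in HCC1395. *KLK3* had 4.26, 4.19 and 4.49 in HCC1806 controls, against 4.18, 4.06 and 3.91 in HCC1395 controls, a difference of 0.26 ± 0.18 (SE, adjusted p = 0.352 in limma). *KLK2*, whose product activates the PSA precursor, had 4.18, 4.43 and 4.24 in HCC1806 controls, against 3.86, 4.04 and 4.25 in HCC1395 controls. It was the only member whose control arrays overlapped between the lines, and its difference was 0.23 ± 0.14 (adjusted p = 0.247 in limma). *KLK2* and *KLK3* are close paralogs, so RNA of one may bind probes of the other, which was not tested. *KLK4*, which encodes a protease of prostate and of tooth enamel, had 4.02, 3.90 and 4.15 in HCC1806 controls, against 3.30, 3.86 and 3.35 in HCC1395 controls. Its difference of 0.52 ± 0.22 missed the threshold (adjusted p = 0.0869 in limma). Without HCC1395 control replicate 2, the highest array of that group, *KLK4* passed at 0.70 and an adjusted p of 0.0310, within a range of 0.0310 to 0.257 over 14 alternatives.

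Counted by arrays alone, 8 of 9 members had all 3 HCC1806 control values above all 3 HCC1395 control values, which held for 20.1% of all clusters. Over all 9 arrays of each line, GapmeR arrays included, the 5 called members did not overlap, against 11.0% of all clusters. *KLK6* and the androgen-responsive members overlapped there.

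**Figure D2:**
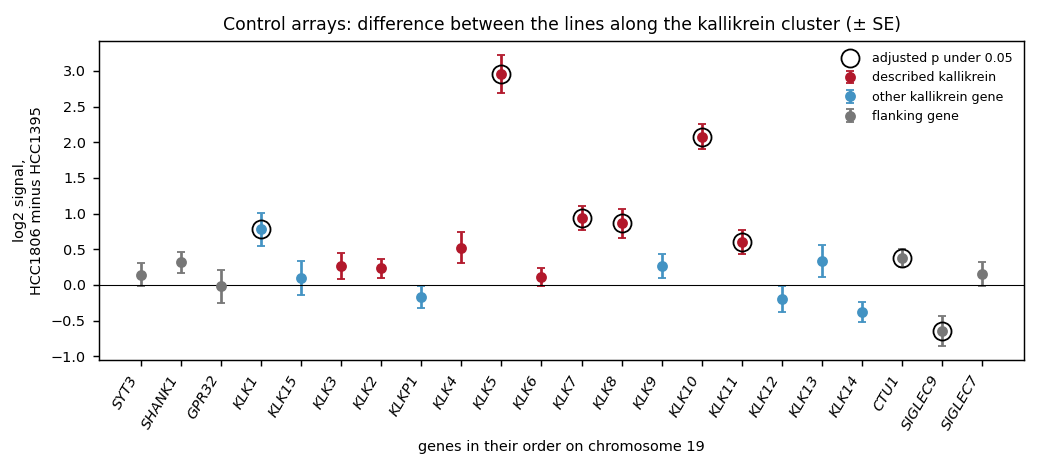
HCC1806 minus HCC1395 difference in log2 signal on the control arrays (vertical axis, ± SE, n = 3 arrays per line) for kallikrein and flanking genes in their order along chromosome 19 (horizontal axis, not to scale). Circled genes had an adjusted p under 0.05 in limma, with the largest differences at *KLK5* (2.96) and *KLK10* (2.08) and the uncalled *KLK6* (0.11) between *KLK5* and *KLK7*.

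Not every kallikrein of the cluster was called. All 7 other kallikrein genes were measured, and 1 of them was called higher in HCC1806, *KLK1*, which encodes tissue kallikrein, a share close to the 14.4% of all clusters. *KLK1* gave 4.91, 5.62 and 5.34 in HCC1806 controls, against 4.13, 4.50 and 4.91 in HCC1395 controls, a difference of 0.78 ± 0.23 (SE, adjusted p = 0.0154 in limma). *KLK9*, *KLK13* and *KLK15* differed by 0.26, 0.34 and 0.10, and *KLK12*, *KLK14* and the pseudogene *KLKP1* by −0.20, −0.38 and −0.17, none of them past the threshold. *KLK14* ran the other way from the members: it gave 4.65, 4.25 and 4.59 in HCC1806 controls, against 4.79, 5.0 and 4.84 in HCC1395 controls, with no overlap (as for 20.6% of all clusters on the lower side) and an adjusted p of 0.0504 in limma. *KLK9*, which lies between *KLK8* and *KLK10*, was thus not called, with an adjusted p of 0.305 in limma. Of 11 genes listed as flanking the cluster 6 were measured, and 1 was higher in HCC1806 (*CTU1*, a tRNA-modifying enzyme, 0.38) and 1 lower (*SIGLEC9*, a sialic acid receptor, −0.64).

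Many of the genes that act with kallikreins had no cluster with their symbol alone. Their counts stand beside 14.4% of all clusters called higher in HCC1806 and 14.9% called lower. Of 6 surface proteases 2 were measured, and *ST14*, which encodes matriptase, an activator of kallikrein precursors, was higher in HCC1806 by 4.09 ± 0.24 (SE, adjusted p = 1.19e-09 in limma), while *HPN* (hepsin) differed by 0.19. Of 14 inhibitors 2 were measured: *A2M*, which encodes the protease trap alpha-2-macroglobulin, was lower in HCC1806 by a log2 difference of −5.65 ± 0.30 (adjusted p = 3.66e-10 in limma), and *PZP* differed by 0.07. Among 13 measured of 16 substrates and receptors, 1 was called higher in HCC1806 (*MBP*, myelin basic protein, 0.59) and 1 lower (*IGFBP3*, a binding protein of insulin-like growth factors that PSA cuts, −1.73), and the median of the list was 0.02. *DSC1*, a desmosomal protein of keratinocytes, differed by 0.37, and *SEMG2*, a semen protein of the kind that PSA cuts, by −0.31, neither past the threshold. Of 7 measured keratinisation genes *KRT10* (0.61) and *SPRR1A* (0.58) were called higher. Of 7 steroid receptors and androgen factors 3 were measured, of which *FOXA1*, a cofactor of steroid receptors, was higher by 2.5 and *ESR1*, the estrogen receptor alpha gene, by 1.19, whereas *PGR* differed by −0.01. The androgen receptor gene was not analysed here, since its symbol was not matched to a cluster.

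Cell type markers differed between the lines together with the kallikreins, and their part in the kallikrein difference was not tested. In HCC1806 3 of 4 measured epithelial markers were higher, *EPCAM* by 6.44, *KRT19* by 5.32 and *KRT18* by 3.15, as were 2 of 3 basal markers (*KRT5* by 3.96, *EGFR* by 0.62) and 3 of 4 luminal markers, among them *GATA3* by 3.33. All 3 measured mesenchymal markers were lower in HCC1806, with log2 differences of −4.19 for *VIM*, −4.58 for *FN1* and −4.15 for *ZEB1*. *EPCAM*, a defining marker of epithelial cells, had a mean log2 signal of 11.18 ± 0.09 (SD) in HCC1806 controls and 4.75 ± 0.35 in HCC1395 controls, not far above the array medians. The mean log2 signal over the epithelial list ran from 8.99 to 9.07 on HCC1806 control arrays, against 5.18 to 5.4 on HCC1395 control arrays, and that over the mesenchymal list ran from 4.87 to 5.44 on HCC1806 control arrays, against 9.37 to 9.51 on HCC1395 control arrays. *KRT19* averaged 3.72 and *FOXA1* 3.44 in HCC1395 controls, and *A2M* 3.90 and *ZEB1* 3.15 in HCC1806 controls, all below the array medians, and *ST14* averaged 4.19 in HCC1395 controls. Detection calls were not used here, so with one group at so low a signal these differences are those of the measured signals and may understate the difference in RNA. *CD14*, *PECAM1* and *VWF*, markers of leukocytes and endothelium, averaged 3.96, 2.34 and 3.59 in HCC1806 controls, against 3.98, 2.98 and 3.93 in HCC1395 controls, all below the array medians and none of them called.

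Some transcripts followed the members closely over the 18 arrays, which is a description that the gap between the lines dominates. *KLK5* was matched best by *CLDN7*, a tight junction gene (r = 0.9895), *HOXD10* (0.9875) and *MAPK13* (0.9872). *KLK10* was matched best by *EPPK1*, the epithelial protein epiplakin (0.9918), *LINC01133* (0.9913) and *RPS18* (0.9903). For *KLK7* the closest was *SAMD8* (0.9637), for *KLK8* *CALHM2* (0.9690) and for *KLK11* *FBLN1* (0.9453). After each line's mean was subtracted, the best match of *KLK5* was *ICAM2* (0.8404), that of *KLK10* was *DUOX2* (0.9001) and that of *KLK8* was again *CALHM2* (0.8378), so different genes led for *KLK5* and *KLK10* within the lines. Each is the highest r of a search over all clusters with a symbol, which by itself favors high values. *KLK2* and *KLK3*, near the array medians, reached 0.8023 with *LIMS1* and 0.8607 with *DNASE2B* in the same search.

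After the GapmeRs no kallikrein passed the test in either line. In limma, 0 of 9 members and 0.00% of all clusters were called for either GapmeR or for both together against the control. A contrast without limma's moderation also called 0 members after Benjamini-Hochberg adjustment. At an unadjusted p under 0.05 the HCC1395 arrays held *KLK5* on the lower side and *KLK2* on the higher side over both GapmeRs, where 3.10% of all clusters were lower and 3.45% higher, and HCC1806 held no member, against 5.26% of all clusters. The median log2 fold change of the 9 members over both GapmeRs was 0.04 in HCC1806, beside 0.01 over all clusters, and −0.03 in HCC1395, beside 0.00 over all clusters. GapmeR 1 and GapmeR 2 share their control arrays, so the 2 contrasts are not independent of each other.

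**Figure D3:**
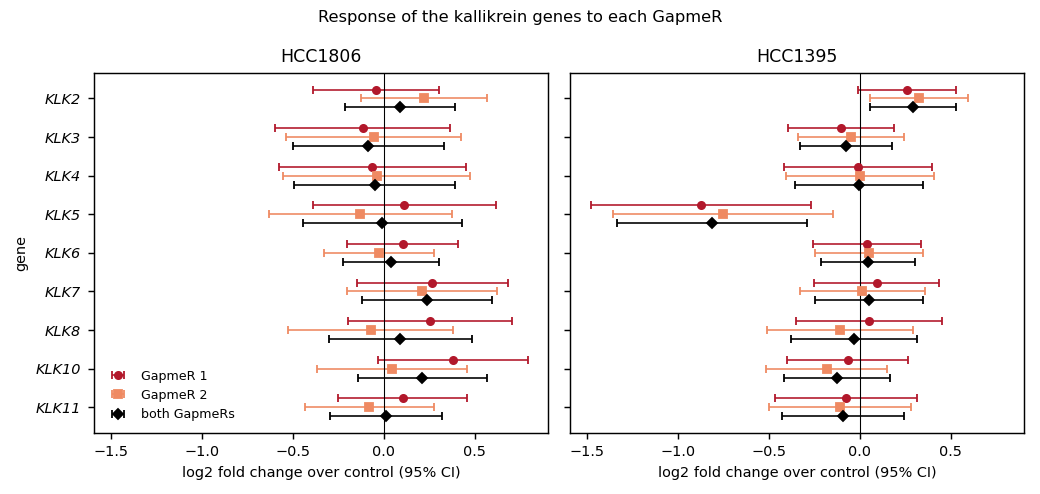
Log2 fold change over the control arrays (horizontal axis, with 95% confidence interval from limma) of the 9 kallikrein genes for GapmeR 1, GapmeR 2 and the mean of both, in HCC1806 (left) and HCC1395 (right). In HCC1395 *KLK5* lay at −0.87 and −0.75 and *KLK2* at 0.26 and 0.33, while all HCC1806 intervals spanned 0.

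*KLK5* had the largest GapmeR value of the members, in HCC1395. Its log2 signal was 4.49, 4.78 and 5.36 with GapmeR 1 and 4.69, 5.52 and 4.79 with GapmeR 2, against 5.77, 5.96 and 5.51 with the control. All 6 GapmeR arrays were below the control mean and 5 of 6 below every control array, the exception being GapmeR 2 replicate 2. The share of all clusters with such counts was not computed. The log2 fold change was −0.87 ± 0.27 (SE, n = 3 per group, adjusted p = 0.885 in limma) with GapmeR 1 and −0.75 ± 0.27 (adjusted p = 0.717 in limma) with GapmeR 2. Together they gave −0.81 ± 0.23, with a 95% interval from −1.34 to −0.29 and an unadjusted p of 0.00649 that did not survive adjustment (0.698). The mean log2 signal over the epithelial markers ran from 4.91 to 5.55 on these 6 arrays, against 5.18 to 5.4 on the HCC1395 control arrays, and its part in the *KLK5* values was not tested. The study lists *KLK5* among the genes it selected on these arrays, so these values are not independent evidence of a direction.

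In HCC1806 *KLK5* gave 9.27, 8.72 and 8.48 on the arrays labelled GapmeR 1 and was 8.95, 8.54 and 8.24 on the GapmeR 2 arrays, against 8.72, 8.77 and 8.63 on the control arrays. The arrays labelled GapmeR lay on both sides of the controls, 3 above and 3 below their mean. The fold change over both was −0.01 ± 0.20 (SE), with a 95% interval from −0.44 to 0.43. This interval does not reach the HCC1395 estimate but overlaps the HCC1395 interval given above. The difference in response, HCC1806 minus HCC1395, was 0.81 ± 0.32 with an interval from 0.12 to 1.49 and an unadjusted p of 0.0240, but an adjusted p of 0.706 in limma over all clusters. At that unadjusted threshold 1 of 9 members and 6.60% of all clusters differed in response, and after adjustment 0 members and 0.00% of clusters did. For the other 8 members that adjusted p was 0.826 or more.

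**Figure D4:**
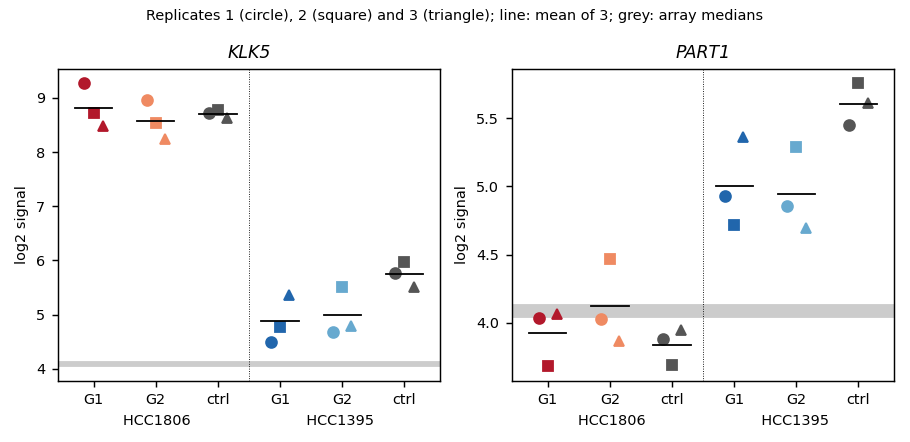
Log2 signal of *KLK5* (left) and of the targeted gene *PART1* (right) on each array, by line and by GapmeR 1 (G1), GapmeR 2 (G2) and control (ctrl), with symbols for the replicate number, a line at the mean of 3 arrays and a grey band at the array medians. In HCC1395 all GapmeR values of *PART1* and 5 of 6 of *KLK5* were below every control value, and in HCC1806 neither gene was set apart from the controls.

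*KLK2* in HCC1395 was the only member whose arrays did not overlap between GapmeRs and control, and in HCC1806 none of the 9 was so separated, against 2.62% of all clusters in either direction. Its HCC1395 signal was 4.27, 4.32 and 4.35 with GapmeR 1 and 4.31, 4.36 and 4.46 with GapmeR 2, against 3.86, 4.04 and 4.25 with the control, so all 6 GapmeR arrays were above the 3 controls. The same held, in the same direction, for 1.90% of all clusters. The log2 fold change was 0.26 ± 0.12 (SE) with GapmeR 1 and 0.33 ± 0.12 with GapmeR 2, with adjusted p-values of 0.916 and 0.720 in limma. These signals of 3.86 to 4.46 stood beside array medians of 4.04 to 4.13. In HCC1806 *KLK2* gave 4.16, 4.08 and 4.49 on the arrays labelled GapmeR 1 and was 4.51, 4.33 and 4.67 on the GapmeR 2 arrays, against 4.18, 4.43 and 4.24 on the control arrays, and these overlapped. Fold changes there were −0.04 ± 0.16 and 0.22 ± 0.16.

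The other androgen-responsive members showed nothing past their spread. In HCC1395 *KLK3* gave 4.04, 3.87 and 3.93 with GapmeR 1 and 4.18, 4.02 and 3.81 with GapmeR 2, against 4.18, 4.06 and 3.91 with the control, and its fold change over both was −0.08 ± 0.11 (SE). In HCC1806 the *KLK3* arrays labelled GapmeR ranged from 3.88 to 4.74, against 4.19 to 4.49 on the control arrays (−0.09 ± 0.19). *KLK4* had fold changes over both GapmeRs of −0.05 ± 0.20 in HCC1806 and −0.00 ± 0.16 in HCC1395. One *KLK4* array stood out from its group, GapmeR 1 replicate 1 of HCC1806 at 4.55, beside 3.67 and 3.66 on its 2 replicates.

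*KLK10* had the largest value of the HCC1806 members with GapmeR 1, though not with GapmeR 2 or over both. It gave 7.88, 7.71 and 7.42 on the arrays labelled GapmeR 1 and was 7.42, 7.08 and 7.51 on the GapmeR 2 arrays, against 7.45, 7.0 and 7.41 on the control arrays. Of the arrays labelled GapmeR 1, 2 of 3 were above every control array, with a fold change of 0.38 ± 0.18 (SE, adjusted p = 0.846 in limma). GapmeR 2 gave 0.05 ± 0.18 and both together 0.21 ± 0.16. Over both GapmeRs 5 of 6 arrays were above the control mean. Without HCC1806 control replicate 2, the lowest control array, the GapmeR 1 value was 0.24. In HCC1395 *KLK10* gave 5.01, 5.34 and 5.08 with GapmeR 1 and 5.20, 4.85 and 5.03 with GapmeR 2, against 5.28, 5.35 and 4.99 with the control, or −0.13 ± 0.13 over both.

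The remaining members stayed within their spread. *KLK7* gave 5.61, 5.64 and 5.11 on HCC1806 arrays labelled GapmeR 1 and was 5.32, 5.42 and 5.45 on the GapmeR 2 arrays, against 5.48, 4.92 and 5.16 on the control arrays, and 5 of 6 were above the control mean (0.24 ± 0.16, SE, over both). In HCC1395 its fold change was 0.05 ± 0.13. *KLK8* gave 6.33, 5.81 and 6.12 on HCC1806 arrays labelled GapmeR 1 and was 5.67, 5.59 and 6.02 on the GapmeR 2 arrays, against 6.05, 5.48 and 5.97 on the control arrays. The fold changes of *KLK8* over both were 0.09 ± 0.18 in HCC1806 and −0.03 ± 0.15 in HCC1395. *KLK11* had 0.01 ± 0.14 in HCC1806 and −0.09 ± 0.15 in HCC1395, and *KLK6* had 0.04 ± 0.12 in HCC1806 and 0.05 ± 0.11 in HCC1395.

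The 2 GapmeRs were also set against each other, and no member was called, against 0.00187% of all clusters in HCC1806 and 0.00% in HCC1395. In HCC1806 the GapmeR 1 minus GapmeR 2 difference was 0.33 for *KLK10*, with a 95% interval from −0.08 to 0.74, and 0.33 for *KLK8*, from −0.13 to 0.78. *KLK5* differed by 0.24 (interval −0.26 to 0.75) and *KLK2* by −0.26 (interval −0.61 to 0.09) in that line. In HCC1395 the *KLK5* difference was −0.12, with an interval from −0.73 to 0.48. A miss of the threshold at this width does not show that the GapmeRs acted alike.

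The members are described here by how they deviated on single arrays. HCC1806 GapmeR 1 replicate 1 held the highest HCC1806 value of *KLK4*, *KLK5*, *KLK8*, *KLK10* and *KLK11*, and 7 of 9 members were above their group mean on it, by 0.20 log2 units on average over the 9. HCC1395 control replicate 2 had 8 of 9 members above their group mean, by 0.13 on average. Over the 18 arrays the deviations from the group means of 2 members correlated positively in 26 of 36 pairs, with a median r of 0.19, and *KLK6* and *KLK7* gave the highest r, 0.63. These correlations describe 18 arrays that share normalization. Such counts were not made for other clusters, so whether they are particular to the members was not tested.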

How the data were processed

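The 18 arrays fall into 6 groups of 3, by cell line and GapmeR as labelled. The values are log2 signals of 53617 transcript clusters, deposited by the authors after RMA, for which the submitters' processing notes name the Affymetrix Expression Console without a version. The array's genome build was, in the sources used here, not given. RMA quantile-normalizes arrays, so a shift of all transcripts cannot be seen, and the number of arrays limits the precision. Symbols came from the platform annotation, and 16098 clusters had exactly 1. The other 37519 were left without a symbol, and those with none and those with several were not counted apart. A list gene is called measured where a cluster had its symbol alone.

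No further normalization or filter on low values was applied, and all 9 members entered every main fit. The signals were fitted by limma's lmFit and eBayes (limma 3.58.1, R 4.3.3), with two-sided tests. The 9 arrays of a line were fitted together for the GapmeR contrasts, and all 18 arrays for contrasts between lines. Adjusted p-values are Benjamini-Hochberg over all clusters, called at 0.05. The procedure was tested on simulated data with 50 clusters changed at each size. For both GapmeRs against control it called 13 of 50 changes of 0.68 log2 units in HCC1806 and 9 of 50 in HCC1395. At 1.0 log2 units it called 37 and 35 of 50, so a missed threshold does not show that a gene was unchanged. Members and gene lists were chosen with earlier results of these data known. Named genes are the members, *PART1*, the other kallikreins, up to 4 genes of each related list by p, and the 3 best correlated genes of each member with a signal above the array median. For a list gene with several clusters the brightest was taken. The lists cover other kallikreins, inhibitors, substrates and receptors, surface proteases, steroid receptors, keratinisation, flanking genes and cell type markers, and none of the 3 fibroblast markers was measured. Alternatives changed the normalization, filter, variance model, moderation of the test, arrays and adjustment set. Python 3.11.15 with pandas 2.3.3 and matplotlib 3.10.9 produced the tables and figures.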

Additional observations from a re-analysis of the deposited data

Results flagged for a closer look

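*KLK5* was set aside for a closer look because its response to the GapmeRs differed between the lines at an unadjusted p of 0.0240. The log2 fold change over both GapmeRs was −0.01 ± 0.20 in HCC1806 and −0.81 ± 0.23 in HCC1395 (SE), a difference of 0.81 ± 0.32, and the adjusted p over all clusters was 0.706 in limma. At an unadjusted p under 0.05 in limma, 6.60% of all clusters differed in response in either direction, and only the members were screened for setting aside.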

How the results depend on the processing

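The 5 members called higher in HCC1806 controls were 5 under the replicate block, both added normalizations, the filter on the dimmest 40% of clusters, the intensity trend, the unmoderated contrast, the 6 control arrays alone and adjustment over clusters with a symbol, and 4 to 6 when single arrays were left out. Over the 14 alternatives the *KLK5* difference ran from 2.84 to 3.06. That filter also left *KLK4* out of the HCC1395 fits. No member was called after a GapmeR under any alternative. Of 90 member values 12 had an unadjusted p under 0.05 and all 12 kept their sign, while 47 of the other 78 took the other sign at least once. The 12 were picked by a small p, which makes a kept sign likely beforehand, and several are contrasts of the same arrays. The *KLK5* value over both GapmeRs in HCC1395 ran from −0.94 to −0.71 with single arrays left out. Over all clusters, the line difference called 7205 of the clusters with a symbol, as fewer were tested. HCC1806 GapmeR 1 minus GapmeR 2 called 1 cluster, and 0 with the replicate block, the unmoderated contrast or all 18 arrays, with 0 to 1 when arrays were left out. For HCC1395, all 18 arrays gave 1 for GapmeR 2 and for both GapmeRs, and the GapmeR 1 minus GapmeR 2 contrast gave 1 without moderation and 0 to 1 with arrays left out. HCC1806 GapmeR 1 minus control called 0 to 6 with arrays left out, 6 without GapmeR 1 replicate 3, and the response difference 0 to 1. The cause of these shifts was not tested. Replicate numbers were not taken as pairs in the main fits, and the labels do not say what a number marks. Same-numbered deviations correlated at only −0.007 to 0.093. Yet 10 of 12 GapmeR arrays were closest, among the 3 controls of their line, to the control of their own number. A shared origin of same-numbered arrays was not tested. Under the block the *KLK5* value in HCC1395 kept −0.81, with an adjusted p of 0.614 in limma (0.545 to 0.915 over 17 alternatives).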

Other observations

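Among the other kallikreins, *KLK13*, which lies next to *KLK12* in the cluster, was above the control mean on all 6 HCC1806 arrays labelled GapmeR. It gave 4.33, 3.91 and 4.13 on the arrays labelled GapmeR 1 and was 3.77, 4.15 and 4.35 on the GapmeR 2 arrays, against 4.14, 3.07 and 3.55 on the control arrays. The groups overlapped through control replicate 1, and the log2 fold change over both was 0.52 ± 0.23 (SE), with an unadjusted p of 0.0438 and an adjusted p of 0.939 in limma. In HCC1395 *KLK13* had 0.24 ± 0.13 and 5 of 6 arrays above the control mean. *KLK14* was above every control array on 5 of 6 HCC1806 arrays labelled GapmeR (0.24 ± 0.14), and its value in HCC1395 was 0.04 ± 0.11. For these array counts of *KLK13* and *KLK14* the share of all clusters was not computed. The pseudogene *KLKP1* had 0.19 ± 0.12 in HCC1806 and 0.20 ± 0.14 in HCC1395.

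In the related lists no gene was called after the GapmeRs. *IVL*, which encodes the keratinocyte envelope protein involucrin, had −0.42 ± 0.16 over both GapmeRs in HCC1395 (adjusted p = 0.738 in limma), and the flanking gene *SIGLEC9* had −0.47 ± 0.16 (adjusted p = 0.734 in limma).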
